A study of Mus musculus with 22 samples.

Results

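The comparison described here set the distal colon of Winnie mice with rectal prolapse against the distal colon of C57BL/6 mice, and its members were the 15 bulk RNA-seq libraries whose labels name those groups, out of 22 libraries in the series. The other 7, from Winnie mice without prolapse, were left out of the fit. Winnie mice carry a missense mutation in Muc2, the gene of the main secreted mucin of the colon, and develop colitis without any added agent, infection or treatment. The Winnie-Prolapse group held 7 mice aged 18 weeks (4 males and 3 females), and the C57BL/6 group, the wild type kept in the same breeding colony, held 8 mice aged 14 weeks (4 males and 4 females). Each library came from 1 mouse. The prolapse mice were the older group, so age and disease cannot be told apart, and the labels name no batch. Replicate numbers were assigned by accession within each group and link no mice between groups. The labels class the prolapse tissue as severely inflamed, and no drug or other agent is named for either group.

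The colon wall is lined by an epithelium of absorptive colonocytes and mucus-secreting goblet cells, with immune cells and fibroblasts in the lamina propria and smooth muscle, enteric neurons and glia beneath it. MUC2 is folded in the endoplasmic reticulum of goblet cells, and misfolded MUC2 engages the unfolded protein response, the set of genes for chaperones and protein disposal that answers to such load. In colitis, T cells and innate lymphocytes release interferon-gamma and other cytokines, chemokines draw in neutrophils and monocytes, and the epithelium alters its own defence and transport genes. RNA from a whole piece of colon mixes all of these cells, so fewer cells of a type and less RNA per cell cannot be told apart in any result below.

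The libraries held 24817527 to 33793979 counts, so a count of 3 stood for about 0.0873 to 0.144 CPM (counts scaled by library total and TMM factor). C57BL/6 replicate 7, although labelled distal colon, stood apart from the rest of its group. It had the highest or the lowest value of its group in 53.3% of the genes tested, against 15.3% to 28.1% in the other C57BL/6 libraries. Genes chosen after their values were seen show the difference. Hoxd13, a homeobox gene of the hind body, was at 0.218 CPM in this library and at 133.7 to 275.6 CPM in the other 7, and Hoxb13 was at 16.5 against 356.5 to 614.0 CPM. Cdx2, a homeobox gene of intestinal identity, was at 316.3 against 2.22 to 61.4 CPM, Slc51a, a bile acid transporter, at 23 against 0 to 0.118 CPM, and Muc2 at 7937 against 2480 to 3649 CPM. Without this library, the number called higher or lower differed in 23 of 51 gene lists, by at most 5 genes, and it is given with a list where it moved by over 1.5 times or by 5 genes. Among the prolapse libraries, replicates 2, 4, 5, 6 and 7 held RNA of squamous keratins, replicates 2, 4 and 5 held RNA of skeletal muscle, and replicate 6 held RNA of milk proteins. Replicates 1 and 3 held little of any of these. The fit was therefore repeated without replicates 6 and 7, and with replicates 1 and 3 as the only prolapse libraries, which leaves 2 mice against 8.

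Of 17397 genes tested, 1712 were called higher in Winnie-Prolapse (9.84%) and 1474 lower (8.47%). A gene was called at an adjusted p under 0.001 and a change of at least 1.5-fold. The higher side held the larger changes, with 658 genes at least 4-fold higher and 212 at least 16-fold higher, against 328 and 16 on the lower side. For 1493 genes (8.58%) every prolapse library lay above every C57BL/6 library, and for 1402 genes (8.06%) every prolapse library lay below. Without C57BL/6 replicate 7, 1861 genes (10.8%) were called higher and 1617 (9.35%) lower. Without prolapse replicates 6 and 7, the counts were 1425 (8.03%) and 774 (4.36%). With replicates 1 and 3 alone, they were 420 (2.29%) and 48 (0.261%). For that fit no share over all genes was taken at an unadjusted p under 0.05. List counts at that threshold in that fit are therefore given without a background. At an unadjusted p under 0.05 and with no fold threshold, 5118 genes (29.4%) were higher and 5056 (29.1%) lower, and limma-voom called 1563 (8.98%) and 1491 (8.57%) where DESeq2 called 2745 (12.6%) and 2302 (10.6%).

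The 10 largest increases by fitted fold change, among called genes of sufficient level and without overlap between the groups, were neutrophil, keratinocyte, muscle and epithelial genes. Clca4b, a member of the calcium-activated chloride channel regulator family, was measured at 1.93 to 14.2 CPM (median 5.81) in C57BL/6 and 1353 to 4458 CPM (median 2700.2) in Winnie-Prolapse (log2 fold change 8.74 ± 0.50, adjusted p = 7.51e-09, where ± is the standard error). Every prolapse library was far above every C57BL/6 library. Prss22, a serine protease, was at 0 to 0.146 CPM (median 0) in C57BL/6 and 7.77 to 44.9 CPM (median 28.3) in Winnie-Prolapse (adjusted p = 3.28e-08). Myot, which encodes the muscle Z-disc protein myotilin, was at 0 to 0.182 CPM (median 0) in C57BL/6 and 1.99 to 34.1 CPM (median 7.94) in Winnie-Prolapse (adjusted p = 2.16e-06). The other 7 were the neutrophil genes Retnlg, S100a8, S100a9, Ltf and Mmp8, the chemokine Cxcl3 and the keratin Krt6b, which are described with their groups.

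The 10 largest decreases, chosen in the same way, were led by Cyp2c55, Slc30a10 and Cyp2c69. Cyp2c55, a cytochrome P450 of the colon, was at 310.3 to 3181 CPM (median 521) in C57BL/6 and 0.672 to 22.2 CPM (median 8.48) in Winnie-Prolapse (log2 fold change -6.58 ± 0.87, adjusted p = 2.2e-05), a fall of 95.8-fold in the fit. Slc30a10, a manganese exporter, was at 4.37 to 32.5 CPM (median 22.9) in C57BL/6 and 0.204 to 1.25 CPM (median 0.339) in Winnie-Prolapse (log2 fold change -5.30 ± 0.57, adjusted p = 3.72e-06). Cyp2c69, of the same P450 family, was at 2.48 to 9.22 CPM (median 4.73) in C57BL/6 and 0 to 0.445 CPM (median 0.0873) in Winnie-Prolapse (adjusted p = 5.41e-06). Hao2, a peroxisomal hydroxyacid oxidase, fell by 10.2-fold (median 267 against 13.4 CPM), and Igf2bp2, which encodes an RNA-binding protein, fell by 10.8-fold. Without prolapse replicate 1 the fall of Hao2 was 16.7-fold and the log2 fold change of 5430427M07Rik was -5.76. In all 10 genes, every prolapse library lay below every C57BL/6 library. The remaining members were Odf3b (log2 fold change -4.72), Tmem35 (-4.72), Pdzd7 (-4.44) and the transcripts 5430427M07Rik (-4.92) and Gm15998 (-3.56). Of these 20 genes, 18 were called in every fit that left out 1 library. Gm15998 lost its call without C57BL/6 replicate 4, 6 or 8 or prolapse replicate 2, 5 or 7 (adjusted p up to 0.0014), and Retnlg without C57BL/6 replicate 3 (adjusted p = 0.00125).

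**Figure D1:**
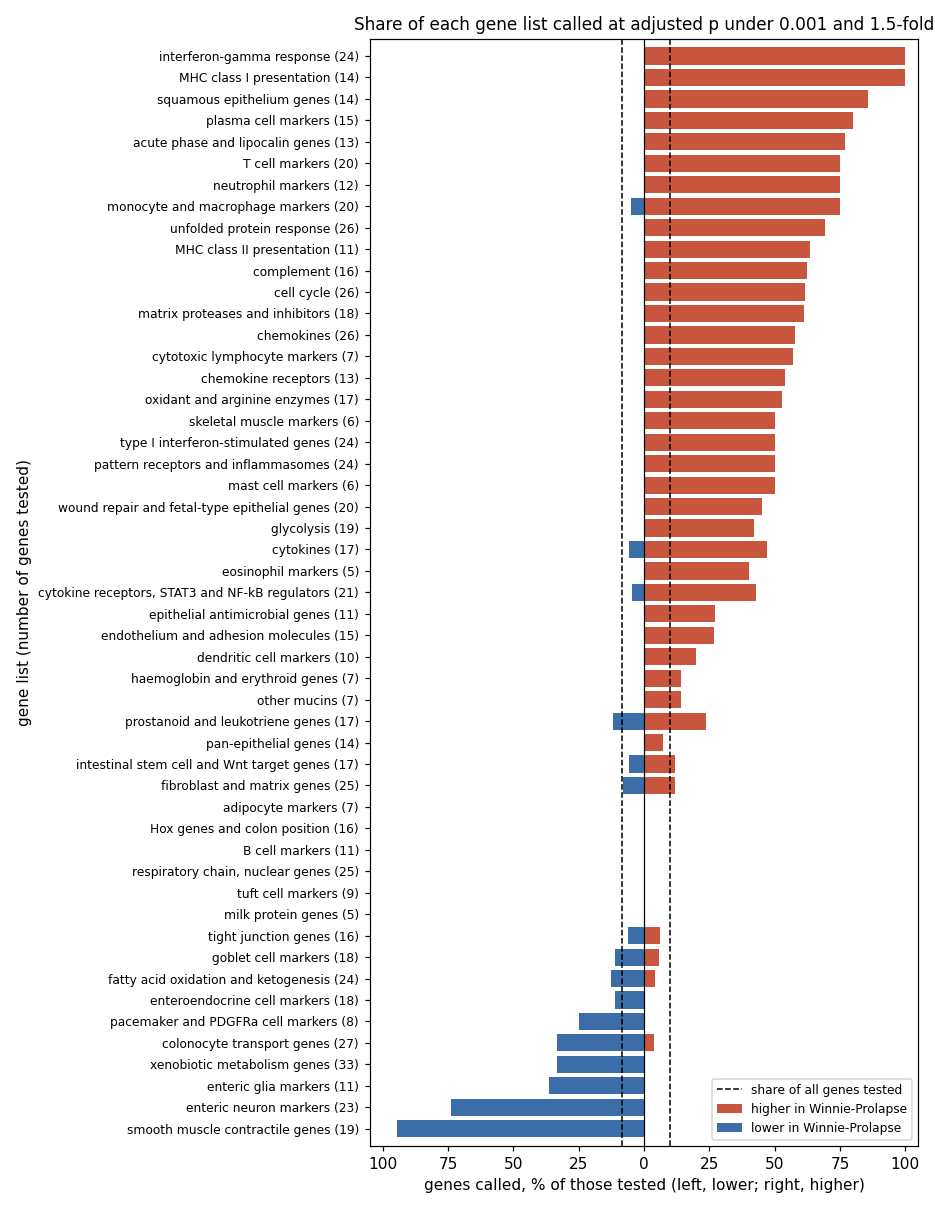
Share of the tested genes of each of 51 gene lists that were called higher (bars to the right) or lower (bars to the left) in Winnie-Prolapse, in percent, with the number tested in brackets and dashed lines at the shares over all genes tested, 9.84% and 8.47%. All 24 interferon-gamma response genes and all 14 MHC class I genes were called higher, and 18 of 19 smooth muscle genes were called lower.

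The interferon-gamma response rose in full. All 24 tested members of the list, of 26 listed, rose and did not overlap between the groups, with a median log2 fold change of 4.39 against -0.0107 over all genes tested. Ifng itself, the cytokine of T helper 1 and natural killer cells, was at 0 to 0.0346 CPM (median 0) in C57BL/6 and 1.42 to 10.03 CPM (median 3.36) in Winnie-Prolapse (adjusted p = 2.55e-07). No C57BL/6 library held more than 1 count of it, so no fold change is given for Ifng, nor for any other called gene whose median in the lower group was at most 3 counts. Tgtp1, an interferon-inducible GTPase that acts on pathogen vacuoles, was at 0.305 to 0.849 CPM (median 0.562) in C57BL/6 and 31.4 to 149 CPM (median 61.05) in Winnie-Prolapse (log2 fold change 6.97 ± 0.39, adjusted p = 7.19e-09). Tgtp1 and Tgtp2 are near-identical copies whose reads the counting could have split, so the value of each is uncertain. Ido1, the first enzyme of the kynurenine pathway, was at 0.7096 to 4.24 CPM (median 2.18) in C57BL/6 and 127 to 1103 CPM (median 274.1) in Winnie-Prolapse (log2 fold change 7.38 ± 0.57, adjusted p = 1.86e-07). Gbp2, a guanylate-binding protein, rose 22.2-fold (median 33.3 against 504 CPM), and Irf1, a transcription factor of the interferon response, rose 2.61-fold (median 123 against 302 CPM). The list was called in full in every fit that left out 1 library and without replicates 6 and 7, and 22 of 24 members were called with replicates 1 and 3 alone.

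Interferon-gamma acts through the gamma-activated sequence (GAS) in its target promoters, and through interferon regulatory factors, which bind the interferon-stimulated response element (ISRE). The promoters of the called list genes with the largest change that hold each motif are printed for that reason, as the 250 bases before the start, read 5′ to 3′ from RefSeq on GRCm38.p6. Capitals mark the match. In Tgtp1 (chr11:48992247-48992496, minus strand) the ISRE core starts at -77 from the transcription start, and in Ifng (chr10:118440796-118441045, plus strand) the GAS match starts at -249. Ifng, the gene of the cytokine itself, is printed by the rule of largest change, and the match does not make it a target.
Tgtp1: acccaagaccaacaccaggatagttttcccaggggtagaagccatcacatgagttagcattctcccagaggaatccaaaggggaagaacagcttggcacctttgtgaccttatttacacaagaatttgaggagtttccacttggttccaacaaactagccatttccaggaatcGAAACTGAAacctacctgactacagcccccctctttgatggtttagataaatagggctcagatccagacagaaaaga
Ifng: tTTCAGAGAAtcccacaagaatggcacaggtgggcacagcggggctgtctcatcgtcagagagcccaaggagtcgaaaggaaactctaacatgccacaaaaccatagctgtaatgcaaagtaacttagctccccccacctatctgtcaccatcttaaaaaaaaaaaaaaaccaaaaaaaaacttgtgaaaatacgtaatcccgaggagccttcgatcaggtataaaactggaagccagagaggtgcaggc

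Over windows of 300 bases (250 before and 50 after the start, both strands searched), the ISRE core GAAANNGAA was found in 12 of 20 promoters of the interferon-gamma list (60.0%), in 11 of 18 of the type I interferon list (61.1%), and in 4 of 14 of the MHC class I list (28.6%), against 8.56% of 32851 promoters. The GAS motif TTCNNNGAA was found in 9 of 20 (45.0%), 3 of 18 (16.7%) and 1 of 14 (7.14%), against 8.30%. RefSeq promoters matched 17 of the 26 interferon-gamma genes, 17 of 24 type I genes and 12 of 14 MHC class I genes. The shares describe letters in these windows and no binding was measured.

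Type I interferon-stimulated genes, which answer to viral and nucleic acid sensing and overlap in part with the interferon-gamma response, rose less uniformly. Of 24 members, 12 were called higher and none lower, with a median log2 fold change of 1.37. Zbp1, a sensor of Z-form nucleic acid, was at 12.9 to 28.1 CPM (median 16.1) in C57BL/6 and 123 to 286 CPM (median 205) in Winnie-Prolapse (log2 fold change 3.56 ± 0.21, adjusted p = 1.04e-08). Ifit2, which binds viral RNA, rose 10.2-fold (median 6.14 against 53.9 CPM) and Ifi44 8.63-fold. These 3 genes separated the groups. Oasl2 rose 4.35-fold, and every prolapse library except replicate 2 (85.8 CPM) was above the highest C57BL/6 value, 94.0 CPM. That value belonged to C57BL/6 replicate 7, whose mean level over the list was 0.98 log2 units above the group mean. Without it, 17 members were called. With prolapse replicates 1 and 3 alone 3 were called, at a median log2 fold change of 1.17 against 1.37 with all libraries.

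Antigen presentation rose with it. MHC class I genes load peptides from inside the cell for CD8 T cells, and all 14 members were called higher (median log2 fold change 1.45). Tap1, the peptide transporter subunit, was at 18.8 to 31.3 CPM (median 23.9) in C57BL/6 and 174 to 355 CPM (median 228) in Winnie-Prolapse (log2 fold change 3.38 ± 0.15, adjusted p = 1.87e-09). The immunoproteasome subunits Psmb9 and Psmb8 rose 8.27-fold and 6.79-fold, and the heavy chains H2-D1 and H2-K1, already above 500 CPM in C57BL/6, rose 3.31-fold and 2.24-fold, all without overlap. Of 11 MHC class II genes, which present extracellular peptides to CD4 T cells, 7 rose. Cd74, the invariant chain, was at 58.04 to 403 CPM (median 169.7) in C57BL/6 and 1369.8 to 3216 CPM (median 2491) in Winnie-Prolapse (log2 fold change 3.70 ± 0.34, adjusted p = 8.59e-07). H2-DMb1 and H2-DMa, which exchange the peptides, rose 15.4-fold and 10.02-fold, and the class II chain H2-Aa 7.86-fold. In each of these 4 genes the lowest prolapse library was above the highest C57BL/6 library. The class II count was 7 without replicates 6 and 7 and 6 with replicates 1 and 3 alone.

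**Figure D2:**
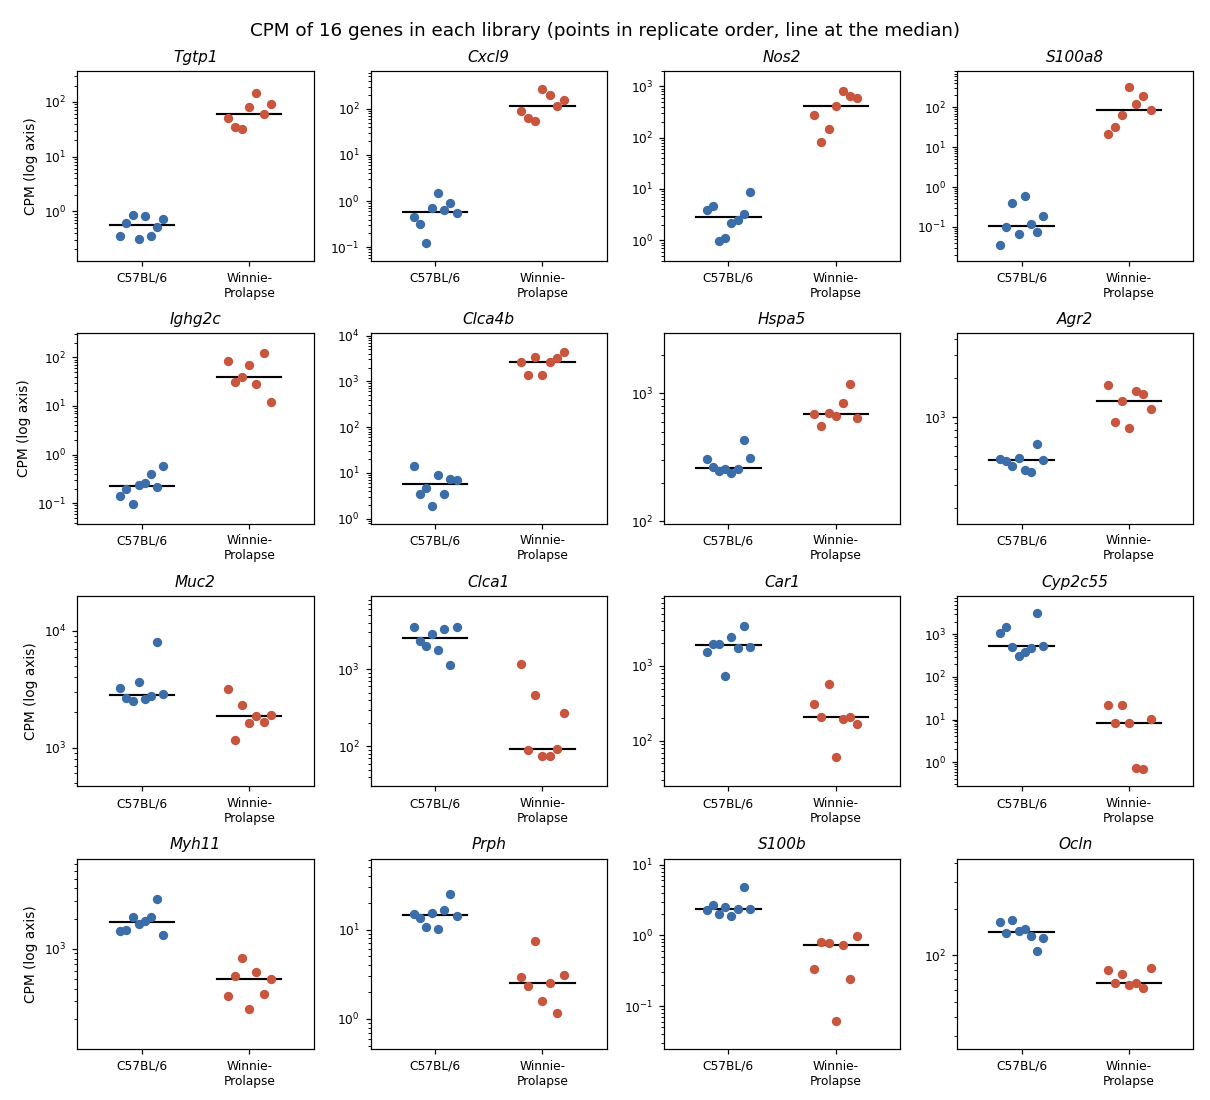
CPM on a log axis of 16 genes in each library, with C57BL/6 in blue, Winnie-Prolapse in red, points in replicate order and a line at each group's median. Prolapse libraries lie above all C57BL/6 libraries for Tgtp1, Cxcl9, Nos2, S100a8, Ighg2c, Clca4b, Hspa5 and Agr2 and below them for Car1, Cyp2c55, Myh11, Prph, S100b and Ocln, while the groups overlap for Muc2 and Clca1.

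Chemokines, which steer leukocytes into tissue, rose for 15 of 26 tested members (median log2 fold change 2.80), and none was called lower. Cxcl9, the interferon-gamma-induced ligand of CXCR3 on T cells, was at 0.126 to 1.48 CPM (median 0.587) in C57BL/6 and 54.9 to 265 CPM (median 112) in Winnie-Prolapse (log2 fold change 7.71 ± 0.48, adjusted p = 1.87e-08). The neutrophil attractants Cxcl2 and Cxcl3 were at 3.36 to 141 CPM (median 15.6) and 0.514 to 26.4 CPM (median 10.8) in Winnie-Prolapse, and neither passed 0.283 CPM in C57BL/6 (adjusted p = 6.01e-06 and 1.65e-06). All 15 called chemokines separated the groups without overlap. The most abundant member that was not called was the epithelial chemokine Ccl28, at 70.4 to 279 CPM (median 164) in C57BL/6 and 77.0 to 369 CPM (median 208) in Winnie-Prolapse (adjusted p = 0.616), and Cx3cl1, a ligand of monocytes, had a log2 fold change of -0.40 ± 0.13 (adjusted p = 0.0157). Of 13 receptors, 7 rose. Ccr1 and Ccr2, of neutrophils and monocytes, rose 6.60-fold (median 2.89 against 17.6 CPM) and 5.89-fold (median 3.67 against 18.4 CPM). With replicates 1 and 3 alone, 7 chemokines and 4 receptors were called. The median log2 fold changes were then 2.27 and 1.86, against 2.80 and 1.73 with all libraries.

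Transcription of many chemokine genes is driven by NF-kB. The promoter of Cxcl9 (chr5:92328080-92328329, minus strand) is printed as the called chemokine with the largest change that holds the motif GGGNNTTCC, with capitals for its matches, which start at -130 and -42.
Cxcl9: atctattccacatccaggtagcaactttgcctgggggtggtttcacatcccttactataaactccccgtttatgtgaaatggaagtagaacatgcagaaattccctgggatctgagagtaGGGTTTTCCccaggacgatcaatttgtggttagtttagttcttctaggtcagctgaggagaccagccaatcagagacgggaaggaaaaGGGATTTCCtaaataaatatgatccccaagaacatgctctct

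This motif was found in 5 of 18 chemokine promoters (27.8%), which covered 17 of the 26 genes, against 5.82% of all promoters.

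Among cytokines, 8 of 17 tested members rose and 1 fell. Il1b, the inflammasome-processed alarm cytokine of myeloid cells, was at 0.226 to 2.03 CPM (median 0.736) in C57BL/6 and 28.7 to 255 CPM (median 60.97) in Winnie-Prolapse (log2 fold change 6.93 ± 0.60, adjusted p = 4.83e-07). Il1a, its relative released from damaged cells, was at 0 to 0.554 CPM (median 0.215) in C57BL/6 and 5.58 to 57.98 CPM (median 13.8) in Winnie-Prolapse (log2 fold change 6.94 ± 0.74, adjusted p = 3.6e-06), and Osm, an IL-6 family cytokine of myeloid cells, at 0.0346 to 0.296 CPM (median 0.103) in C57BL/6 and 0.479 to 40.5 CPM (median 2.38) in Winnie-Prolapse (adjusted p = 3.87e-05). The groups did not overlap for Il1b, Il1a or Osm, although the levels of all of them varied widely between the prolapse libraries. The fall was in Il18, an interleukin of the colonic epithelium (median 134 against 46.3 CPM; log2 fold change -1.46 ± 0.24, adjusted p = 0.00014), with a small overlap between the groups. Without prolapse replicates 6 and 7, Il18 was not called (log2 fold change -1.45, adjusted p = 0.00139). Il1rn, the antagonist of the IL-1 receptor, had a log2 fold change of 0.98 ± 0.23 and was not called (adjusted p = 0.00261). The other 14 of 31 listed cytokines were too low to test. Among these, 3 chosen after their values were seen were Il6, at 0.137 to 18.6 CPM (median 1.43) in Winnie-Prolapse, Il17a, at 0.308 to 1.01 CPM (median 0.453), and Il22, at 0.0291 to 0.817 CPM (median 0.0685).

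Of 21 cytokine receptors and regulators of STAT3 and NF-kB, 9 rose and 1 fell. The decrease was in Il11ra1, a receptor of interleukin-11 (-0.67 ± 0.13), with overlapping groups. It was not called without C57BL/6 replicate 3 or 4, prolapse replicate 1, 5 or 6 (adjusted p up to 0.00153) or without prolapse replicates 6 and 7 (adjusted p = 0.0046). Il1r2, the decoy receptor of IL-1, rose 43.6-fold (median 0.255 against 7.58 CPM), Socs3, the feedback inhibitor of STAT3 signalling, 12.6-fold (median 8.20 against 107 CPM), and Tnfrsf1b, a tumour necrosis factor receptor, 7.29-fold (median 22.7 against 159 CPM). Without prolapse replicate 4, Il1r2 rose 26.8-fold. Stat3 itself rose 1.57-fold from a higher base (median 164 against 245 CPM; log2 fold change 0.65 ± 0.082, adjusted p = 1.46e-05). Nfkbia, the inhibitor of NF-kB, had a log2 fold change of 0.35 ± 0.15 and was not called. Of 24 pattern receptors and inflammasome genes, 12 rose and none was called lower. With prolapse replicates 1 and 3 alone, 4 of these were called higher, at a median log2 fold change of 0.803 against 0.796 with all libraries. Clec4e, a sensor of microbial and dead-cell glycolipids on myeloid cells, was at 0 to 0.296 CPM (median 0.0329) in C57BL/6 and 3.29 to 46.1 CPM (median 14.7) in Winnie-Prolapse (adjusted p = 2.62e-06). Nlrp3, the inflammasome sensor, rose 34.04-fold (median 0.231 against 4.61 CPM) and Nod2, a sensor of bacterial muramyl dipeptide, 9.86-fold. These 3 genes did not overlap between the groups. The abundant epithelial members were not called, with log2 fold changes of 0.62 ± 0.16 for the pore-forming Gsdmd and -0.20 ± 0.18 for Nlrp6.

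Myeloid cell markers rose. Of 18 neutrophil genes listed, 12 were tested, and 9 were called higher and none lower, with a median log2 fold change of 6.41. Members such as Retnlg and S100a9 had median C57BL/6 counts of 0 and 2. They could pass the filter on low counts only through the prolapse libraries, which favours a rise. The share called and the median are therefore descriptions of the genes that passed. S100a8 and S100a9, the subunits of calprotectin, were at 0.0346 to 0.591 CPM (median 0.108) in C57BL/6 and 21.9 to 332 CPM (median 83.8) in Winnie-Prolapse and at 0.0320 to 0.591 CPM (median 0.0718) in C57BL/6 and 18.9 to 496 CPM (median 64.2) in Winnie-Prolapse, with adjusted p = 2.15e-07 and 1.21e-06. Ltf, lactoferrin of neutrophil granules and of glands, was at 0.109 to 0.589 CPM (median 0.353) in C57BL/6 and 12.2 to 1339 CPM (median 91.1) in Winnie-Prolapse (log2 fold change 9.68 ± 1.14, adjusted p = 7.88e-06), with its highest value in replicate 6. Retnlg, a resistin-like protein of neutrophils, reached 0.890 to 157 CPM (median 10.6) in Winnie-Prolapse and at most 0.0943 CPM in C57BL/6 (adjusted p = 1.39e-05). All 9 called neutrophil genes were higher in every prolapse library than in any C57BL/6 library, and those of S100a8, S100a9, Ltf and Retnlg spread over more than an order of magnitude among the prolapse libraries. Cd177, a neutrophil surface protein, was at 37.98 to 85.1 CPM (median 42.5) in C57BL/6 and 297 to 932 CPM (median 583) in Winnie-Prolapse and rose 11.8-fold, with a narrower spread. The log2 fold change of Ltf was 8.40 without prolapse replicate 6. Ly6g, used to identify neutrophils, was not called. It was at 226.8 to 341.0 CPM in 7 of the 8 C57BL/6 libraries, in which S100a8 did not pass 0.591 CPM, and at 297 to 987 CPM (median 469) in Winnie-Prolapse (log2 fold change 1.02 ± 0.51, adjusted p = 0.104). The mean level of the list was lowest in replicate 3 (3.61 log2 units above the C57BL/6 mean) and highest in replicate 4 (7.10), and 9 members were called with replicates 1 and 3 alone.

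Of 20 monocyte and macrophage markers, 15 rose and 1 fell. Chil3, a chitinase-like protein, was at 0 to 0.148 CPM (median 0.0359) in C57BL/6 and 0.453 to 37.1 CPM (median 7.05) in Winnie-Prolapse (adjusted p = 2.25e-05), and the Fc receptor Fcgr4 rose 19.1-fold (median 1.11 against 22.1 CPM). The complement component C1qa of resident macrophages rose 2.25-fold, and these 3 genes separated the groups. In the fit without replicates 6 and 7, 10 markers were called higher and 1 lower. With replicates 1 and 3 alone, 5 were called higher and 0 lower, at a median log2 fold change of 1.31 against 1.34 with all libraries. Mertk, a receptor for the clearance of dying cells that is named as the single decrease, fell by 2.79-fold (median 62.0 against 16.98 CPM), and Lyz2 was not called (1.32 ± 0.29, adjusted p = 0.00157). Dendritic cell markers were called for 2 of 10, namely Fscn1 of migratory dendritic cells (1.49 ± 0.20) and the transcription factor Batf3 (1.26 ± 0.24), although 1 to 4 members were called in fits without 1 library and Batf3 was called in 8 of the 15 fits without 1 library, with adjusted p from 0.000448 to 0.00184. Of 6 mast cell markers tested, 3 rose, the proteases Mcpt2 (3.85 ± 0.56), Mcpt1 (2.62 ± 0.43) and Mcpt4 (3.43 ± 0.70), and Mcpt4 was called in 3 of the 15 fits without 1 library, with adjusted p from 0.000285 to 0.0022. Mcpt4 lay inside the C57BL/6 range in prolapse replicates 1 and 3. The chymase Cma1 was not called (log2 fold change 0.77 ± 0.35, adjusted p = 0.0722), and its groups overlapped. Of 5 eosinophil markers, the granule protein Prg2 (2.68 ± 0.29) and the interleukin-5 receptor Il5ra (median 0.0667 against 0.836 CPM) rose, while the defining peroxidase Epx was at 0 CPM in every prolapse library.

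T cell markers rose for 15 of 20 genes (median log2 fold change 1.99), at low absolute levels. Ctla4, the inhibitory receptor of activated and regulatory T cells, was at 0.0314 to 0.288 CPM (median 0.227) in C57BL/6 and 3.23 to 9.26 CPM (median 3.70) in Winnie-Prolapse (log2 fold change 4.56 ± 0.36, adjusted p = 1.94e-07). Icos, a costimulatory receptor, rose 6.73-fold (median 0.650 against 4.37 CPM), and Cd3g of the T cell receptor complex 4.19-fold (median 1.10 against 3.98 CPM), none of them with overlap between the groups. Cd4 rose 3.63-fold with overlapping groups, a call lost without C57BL/6 replicate 2 (adjusted p = 0.00109) or prolapse replicate 7 (adjusted p = 0.00106). Of 7 cytotoxic markers, the granzymes Gzmb and Gzma and the natural killer cell genes Nkg7 and Klrk1 rose, with Gzmb at 0.0629 to 0.420 CPM (median 0.247) in C57BL/6 and 1.79 to 6.24 CPM (median 4.31) in Winnie-Prolapse (log2 fold change 4.002 ± 0.38, adjusted p = 1.14e-06). Without replicates 6 and 7, 10 T cell markers were called. With replicates 1 and 3 alone 2 were called, where 2.29% of all genes were called higher. The median log2 fold change was then 2.06, against 1.99 with all libraries.

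Plasma cell genes rose and B cell genes were not called. Of 15 plasma cell markers, 12 were called higher (median log2 fold change 2.82). With prolapse replicates 1 and 3 alone, 6 were called, at a median of 2.68. Igha, the heavy chain of secretory IgA, was at 246 to 1201 CPM (median 515) in C57BL/6 and 3434 to 7135 CPM (median 5836) in Winnie-Prolapse (log2 fold change 3.15 ± 0.34, adjusted p = 4.27e-06), and the kappa light chain Igkc rose 8.71-fold. The IgG heavy chains started from far lower levels. Ighg2c was at 0.0943 to 0.576 CPM (median 0.228) in C57BL/6 and 11.8 to 124 CPM (median 39.1) in Winnie-Prolapse (log2 fold change 7.72 ± 0.55, adjusted p = 6.27e-08), Ighg2b rose 35.6-fold (median 3.60 against 159.6 CPM) and Ighg1 28.2-fold (median 2.40 against 51.9 CPM), the last of which lost its call without C57BL/6 replicate 4, 5, 6 or 8 (adjusted p up to 0.00116 in those fits, and 0.00195 without prolapse replicates 6 and 7). Ighg1 was at 24.8 CPM in C57BL/6 replicate 1 and at most 3.795 CPM in the other 7, and its fold change was 67.7 without that library. In none of these 5 genes did the groups overlap. Reads of related immunoglobulin constant regions could have been split by the counting. For the 11 B cell markers, edgeR called 0, found 0 at an unadjusted p under 0.05, and DESeq2 and limma-voom also called 0. Cd79a, a subunit of the B cell receptor, was at 0.728 to 49.8 CPM (median 11.997) in C57BL/6 and 7.71 to 43.9 CPM (median 18.5) in Winnie-Prolapse. The mean level of the B cell list ran from -3.57 (C57BL/6 replicate 7) to 2.38 (replicate 5) log2 units within C57BL/6, a spread that covers every prolapse library.

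**Figure D3:**
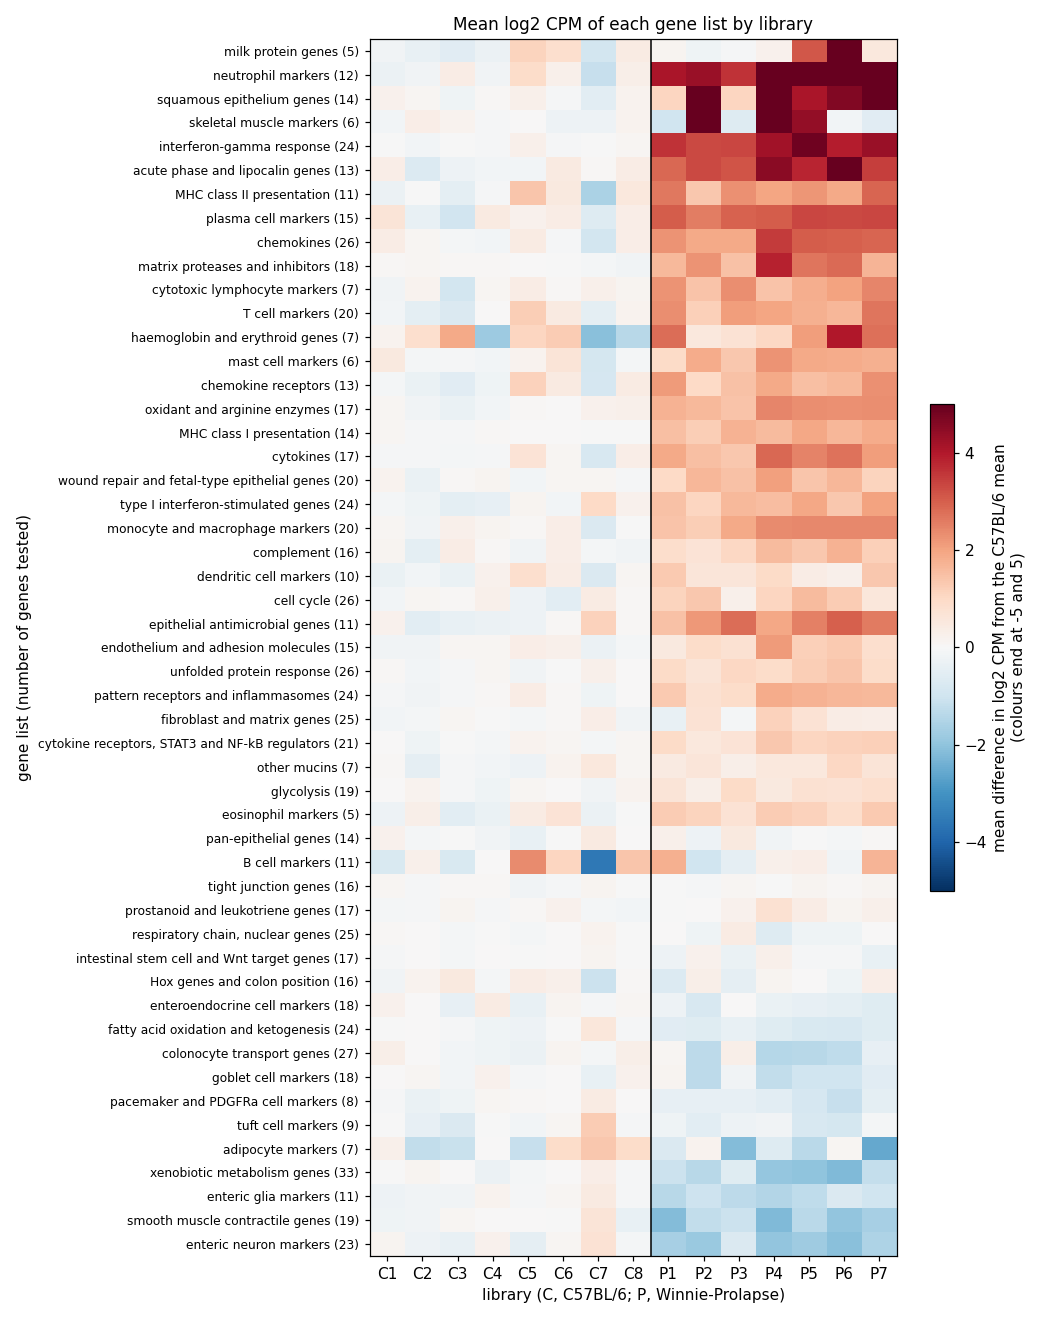
Mean log2 CPM of the tested genes of each of 51 lists in every library, as the difference from the C57BL/6 mean, with lists ordered by median log2 fold change, red for higher and blue for lower and colours ending at -5 and 5. The interferon-gamma row is red in all 7 prolapse libraries (3.28 to 4.85), while the squamous, skeletal muscle and milk rows are dark red in some of them only.

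Of 13 acute phase and lipocalin genes, 10 rose without overlap (median log2 fold change 4.13). Saa1, a serum amyloid A and the most abundant member, was not called. It was at 583 to 1634 CPM (median 1117) in C57BL/6 and 74.2 to 1836 CPM (median 379) in Winnie-Prolapse (log2 fold change -0.92 ± 0.53, adjusted p = 0.158), with 4 of 7 prolapse libraries below every C57BL/6 library. Lcn2, which sequesters bacterial siderophores and serves as a faecal marker of colitis, was at 0.370 to 1.70 CPM (median 0.936) in C57BL/6 and 20.2 to 1209.5 CPM (median 44.7) in Winnie-Prolapse (log2 fold change 7.96 ± 1.002, adjusted p = 1.44e-05), and replicate 6 held the highest value ahead of replicate 4 at 286 CPM. Without replicate 6 its log2 fold change was 6.43. The protease inhibitor Serpina3f was at 0.0943 to 0.381 CPM (median 0.195) in C57BL/6 and 17.5 to 66.3 CPM (median 26.1) in Winnie-Prolapse (log2 fold change 7.40 ± 0.38, adjusted p = 4.35e-09), and Lrg1, a glycoprotein of the acute phase, rose 146-fold (median 1.76 against 174 CPM). Of 11 epithelial antimicrobial genes, 3 were called. Slpi, the secretory leukocyte protease inhibitor, was at 4.17 to 17.3 CPM (median 9.58) in C57BL/6 and 135 to 414 CPM (median 308) in Winnie-Prolapse (log2 fold change 4.72 ± 0.31, adjusted p = 3.28e-08), Pglyrp1, which binds bacterial peptidoglycan, rose 3.19-fold, and Reg3g, a lectin that kills Gram-positive bacteria, was at 0.102 to 13.1 CPM (median 0.382) in C57BL/6 and 5.02 to 344 CPM (median 70.6) in Winnie-Prolapse (log2 fold change 5.68 ± 1.10, adjusted p = 0.000534). Reg3g was called in 6 of the 15 fits without 1 library, with adjusted p from 4.23e-06 to 0.00133, and its log2 fold change was 8.02 without C57BL/6 replicate 7 and 4.92 without prolapse replicate 6. Without C57BL/6 replicate 7, which held the highest C57BL/6 value of Reg3g, 6 members were called. Lypd8, which binds flagellated bacteria in the mucus and was the most abundant member, was at 9889 to 17689 CPM (median 14354) in C57BL/6 and 8280.5 to 25207 CPM (median 12011) in Winnie-Prolapse (log2 fold change 0.01 ± 0.25) and was not called. Pigr, the receptor that carries IgA across the epithelium, was at 3516 to 5579.6 CPM (median 4634) in C57BL/6 and 2053 to 6593 CPM (median 4014) in Winnie-Prolapse and was not called.

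Of 17 oxidant and arginine enzymes, 9 rose. With prolapse replicates 1 and 3 alone 3 were called, at a median log2 fold change of 1.07 against 1.51 with all libraries. Nos2, inducible nitric oxide synthase, was at 0.974 to 8.54 CPM (median 2.88) in C57BL/6 and 83.0 to 805 CPM (median 421) in Winnie-Prolapse (log2 fold change 6.99 ± 0.61, adjusted p = 5.26e-07). Duox2, the dual oxidase of the colonic epithelium, rose 3.63-fold (median 158 against 839 CPM) but was called in 3 of the 15 fits without 1 library, with adjusted p from 6.89e-06 to 0.00213. Duox1 rose 13.6-fold, but replicates 1 and 3, at 0.514 and 0.377 CPM, lay inside its C57BL/6 range of 0.203 to 0.655 CPM (median 0.362), and the increase was in the 5 libraries that held squamous keratin RNA (2.57 to 10.7 CPM). Complement genes rose for 10 of 16, among them C4b of the classical pathway (2.62 ± 0.38), the C5a receptor C5ar1 (2.32 ± 0.39) and the C1 inhibitor Serping1 (0.84 ± 0.16; called in 8 of the 15 fits without 1 library, with adjusted p from 0.000201 to 0.00179). C3 itself was not called (1.12 ± 0.44). With replicates 1 and 3 alone 3 complement genes were called, at a median log2 fold change of 1.18 against 1.28 with all libraries. In the prostanoid list, 4 genes rose and 2 fell of 17 (median log2 fold change -0.05), and in the fit without replicates 6 and 7, 2 were called higher and 0 lower. The prostaglandin synthases Ptgs2 and Ptges rose 12.7-fold and 3.29-fold, Alox12 and Tbxas1 13.4-fold and 2.09-fold, while the prostacyclin synthase Ptgis fell by 2.54-fold and the receptor Ptger3 by 2.31-fold. Alox12 was at 3.90 and 1.30 CPM in replicates 1 and 3, the latter inside the C57BL/6 range of 0.291 to 2.05 CPM (median 0.965), and at 13.2 to 26.7 CPM in the 5 libraries that held squamous keratin RNA, and with replicates 1 and 3 alone the list held 1 higher call. Of the 6 called genes, Ptgis, Ptger3 and Ptges were called in 4, 2 and 8 of the 15 fits without 1 library, and without C57BL/6 replicate 2 the list held 2 calls on the higher side. The most abundant members, the prostaglandin dehydrogenase Hpgd (log2 fold change -1.14 ± 0.25, adjusted p = 0.00136) and the prostaglandin transporter Slco2a1 (log2 fold change -0.96 ± 0.30, adjusted p = 0.0129), were not called, and Hpgd was below every C57BL/6 library in 6 of 7 prolapse libraries. Of 15 endothelial genes, 4 were called higher, with P-selectin Selp 17.1-fold, Icam1 7.66-fold and Vcam1 2.87-fold up and the endothelial cadherin Cdh5 2.68-fold up, while Pecam1, a marker of all endothelium, was at 0.54 ± 0.17 and was not called. Selp was at 54.2 CPM in replicate 4 and at 1.99 to 23.2 CPM in the other 6 prolapse libraries, and its fold change was 9.74 without replicate 4. Cdh5 lost its call without C57BL/6 replicate 2 or 4 (adjusted p = 0.0011 and 0.00104).

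Matrix-degrading enzymes rose, while the bulk of the fibroblast and matrix list was not called. Of 18 proteases and inhibitors, 11 were called higher (median log2 fold change 2.45). Mmp10, a stromelysin of wound edges, was at 0.394 to 0.813 CPM (median 0.5681) in C57BL/6 and 6.85 to 129.9 CPM (median 58.9) in Winnie-Prolapse (log2 fold change 6.60 ± 0.54, adjusted p = 3.12e-07), the collagenase Mmp13 at 0.837 to 3.71 CPM (median 2.46) in C57BL/6 and 10.6 to 326 CPM (median 107) in Winnie-Prolapse (log2 fold change 5.45 ± 0.65, adjusted p = 8.93e-06), and the stromelysin Mmp3 at 0.597 to 1.996 CPM (median 1.05) in C57BL/6 and 1.44 to 156 CPM (median 27.3) in Winnie-Prolapse (log2 fold change 5.08 ± 0.79, adjusted p = 9.16e-05). Mmp8, the collagenase of neutrophils, was at 0 to 0.222 CPM (median 0.0197) in C57BL/6 and 1.28 to 99.2 CPM (median 4.30) in Winnie-Prolapse (adjusted p = 3.14e-05). Mmp8, Mmp10 and Mmp13 separated the groups, and Mmp3 did not. Without prolapse replicate 4 the log2 fold change of Mmp3 was 3.998. The inhibitor Timp2 was not called (-0.41 ± 0.17). With replicates 1 and 3 alone, 4 members were called, at a median log2 fold change of 1.48 against 2.45 with all libraries. Of 25 fibroblast and matrix genes, 3 rose and 2 fell by edgeR, near the background shares. At an unadjusted p under 0.05, 14 were higher and 2 lower (29.4% and 29.1% over all genes), and DESeq2 called 6 higher and 2 lower (12.6% and 10.6%). Lox, which cross-links collagen, rose 6.57-fold, Pdpn 2.23-fold and the Wnt ligand Wnt5a 2.18-fold, while the matricellular protein Postn fell by 2.16-fold and the fibroblast protease Fap by 1.76-fold (called in 2 of the 15 fits without 1 library, with adjusted p from 0.000251 to 0.00198). Col3a1, the most abundant collagen of the list, was at 249 to 329 CPM (median 283) in C57BL/6 and 223 to 590.3 CPM (median 538) in Winnie-Prolapse and was not called. Without prolapse replicate 1 or replicate 3, 6 members were called higher. In the fit with replicates 1 and 3 as the only prolapse libraries, 0 of these fibroblast and matrix genes were called higher and 1 lower. The median log2 fold change was then -0.084, against 0.62 with all libraries. Lox was at 9.43 and 9.76 CPM in replicates 1 and 3 and at 23.6 to 68.2 CPM in replicates 2, 4, 5, 6 and 7.

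The muscle of the wall fell in level. Of 19 smooth muscle contractile genes, 18 were called lower, 16 of all 19 without overlap between the groups, with a median log2 fold change of -1.64. Myh11, the smooth muscle myosin heavy chain, was at 1372 to 3168 CPM (median 1833) in C57BL/6 and 251 to 817 CPM (median 505) in Winnie-Prolapse (log2 fold change -1.98 ± 0.25, adjusted p = 1.25e-05). Tagln, transgelin, was at 1452 to 2164 CPM (median 1856) in C57BL/6 and 228 to 711 CPM (median 522) in Winnie-Prolapse (log2 fold change -1.93 ± 0.21, adjusted p = 4.21e-06), and calponin Cnn1 at 470.2 to 1041 CPM (median 571) in C57BL/6 and 61.9 to 235 CPM (median 143) in Winnie-Prolapse (log2 fold change -2.09 ± 0.24, adjusted p = 5.82e-06). The log2 fold changes of the 18 called members lay between -2.09 and -1.11, the value of Kcnmb1. The member not called was Hspb6 (-0.85 ± 0.33), named for that reason. Without replicates 6 and 7, 15 members were called. With replicates 1 and 3 alone edgeR called 0 of 19, where 0.261% of all genes were called lower. In that fit 19 were lower at an unadjusted p under 0.05, without a share over all genes to set beside them. Its median log2 fold change was -1.59, close to that of all 7 libraries. The highest C57BL/6 level of the list was in replicate 7 (0.66 log2 units above the mean), and 17 members were called without it.

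Serum response factor binds the CArG box in many of these genes. Myl9, the regulatory myosin light chain, fell by 3.74-fold (median 712 against 207 CPM; log2 fold change -1.90 ± 0.25, adjusted p = 2.35e-05), and its promoter (chr2:156775214-156775463, plus strand) is printed because it was the promoter of the list that held the motif, in capitals, which starts at -161.
Myl9: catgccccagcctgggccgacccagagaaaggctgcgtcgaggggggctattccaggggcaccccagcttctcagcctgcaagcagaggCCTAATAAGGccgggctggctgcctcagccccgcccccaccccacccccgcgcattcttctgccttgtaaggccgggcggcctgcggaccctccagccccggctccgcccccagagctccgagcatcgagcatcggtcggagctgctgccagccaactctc

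The CArG box was found in this 1 of 18 promoters (5.56%, 15 of 19 genes) against 1.63% of all promoters.

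Enteric neuron genes fell for 17 of 23 members (median log2 fold change -1.95). Prph, the intermediate filament peripherin, was at 10.2 to 24.8 CPM (median 14.6) in C57BL/6 and 1.15 to 7.53 CPM (median 2.51) in Winnie-Prolapse (log2 fold change -2.30 ± 0.33, adjusted p = 4.79e-05). Calb2, the calcium-binding protein calretinin of excitatory neurons, was at 12.4 to 22.7 CPM (median 15.8) in C57BL/6 and 1.30 to 8.73 CPM (median 2.01) in Winnie-Prolapse (log2 fold change -2.32 ± 0.36, adjusted p = 8.34e-05), and the neuronal RNA-binding protein Elavl3 at 4.05 to 7.77 CPM (median 5.84) in C57BL/6 and 0.578 to 2.40 CPM (median 0.817) in Winnie-Prolapse (log2 fold change -2.42 ± 0.27, adjusted p = 5.18e-06). These 3 genes were lower in every prolapse library. Vip, of inhibitory and secretomotor neurons, had a log2 fold change of -1.23 ± 0.28 (adjusted p = 0.0018) and Tac1, which encodes substance P, one of 1.48 ± 0.34 (adjusted p = 0.00202), and neither was called. Of 11 glial genes, 4 fell, among them S100b at 1.89 to 4.88 CPM (median 2.35) in C57BL/6 and 0.0617 to 0.976 CPM (median 0.739) in Winnie-Prolapse (log2 fold change -2.19 ± 0.40, adjusted p = 0.000316; 0.00118 without replicates 6 and 7), Ngfr (-1.57 ± 0.24) and the neural crest factor Foxd3 (-1.96 ± 0.29). Sox10, a glial transcription factor, was at 40.2 CPM in replicate 6 and at 0.635 to 1.44 CPM in the other 6 prolapse libraries, so that its log2 fold change of 1.04 with all libraries became -1.73 without replicate 6. Neither value was called. Of 8 pacemaker cell markers, the receptor Kit (-1.18 ± 0.21) and the potassium channel Kcnn3 (-1.53 ± 0.30) fell, the latter called in 7 of the 15 fits without 1 library, with adjusted p from 0.000264 to 0.00148. Neither was called without replicates 6 and 7 (adjusted p = 0.00177 and 0.00445), without C57BL/6 replicate 7 the list also held 1 higher call, and the pacemaker channel Ano1 was not called (-0.81 ± 0.28). The count of neuron genes was 12 without replicates 6 and 7. With replicates 1 and 3 alone, edgeR called 0 neuron and 0 glia genes, where 0.261% of all genes were called lower. The medians were -1.35 and -1.51. At an unadjusted p under 0.05, 17 of 23 and 8 of 11 were lower, again without a share over all genes. The neuron list stood highest in replicate 3, at -0.70 log2 units from the C57BL/6 mean, against -2.09 to -1.56 in the other 6.

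Goblet cell markers were called at shares near the background. Of 18 members, 1 rose and 2 fell, with a median log2 fold change of -0.69. At an unadjusted p under 0.05, 10 were lower and 2 higher, where the shares over all genes were 29.1% and 29.4%. Muc2, the gene mutated in Winnie, was at 2480.0 to 7937 CPM (median 2808) in C57BL/6 and 1162 to 3145 CPM (median 1852) in Winnie-Prolapse (log2 fold change -0.84 ± 0.27, adjusted p = 0.0155), and was not called lower. The label of the groups cannot be checked from this level, since a missense allele is counted like the wild type. Its highest C57BL/6 value was that of replicate 7. Agr2, the disulphide isomerase that MUC2 folding requires, rose to 825 to 1760.2 CPM (median 1343) from 379.5 to 624 CPM (median 469) (log2 fold change 1.49 ± 0.16, adjusted p = 4.56e-06). Klk1, a kallikrein of goblet cells, was at 497 to 1116 CPM (median 882) in C57BL/6 and 76.9 to 411 CPM (median 100.7) in Winnie-Prolapse (log2 fold change -2.24 ± 0.37, adjusted p = 0.000152). Clca1, a metalloprotease of the mucus gel, was at 1135 to 3561 CPM (median 2576) in C57BL/6 and 75.8 to 1174 CPM (median 92.4) in Winnie-Prolapse (log2 fold change -3.001 ± 0.61, adjusted p = 0.000806), with replicates 1, 3 and 7 at 1174, 466.5 and 268 CPM and the other 4 between 75.8 and 92.4 CPM, and it was called in 2 of the 15 fits without 1 library, with adjusted p from 3.3e-05 to 0.00209. The calls of Clca1 were made without C57BL/6 replicate 7 and without prolapse replicate 1, where its log2 fold change was -3.86 in the latter. The groups overlapped for Clca1 and Muc2 and were apart for Klk1 and Agr2. The mucus component Fcgbp was not called (log2 fold change -0.95 ± 0.39, adjusted p = 0.0506). Of 7 other mucins, 1 was called, a share near the background. This was Muc20, which rose from very low levels (median 0.168 against 1.75 CPM). The membrane mucins Muc3 (-0.88 ± 0.20) and Muc13 (0.47 ± 0.20) were not called. Over the whole goblet cell list, replicates 1 and 3 were at 0.15 and -0.16 log2 units from the C57BL/6 mean and the other 5 prolapse libraries between -1.32 and -0.55. Without replicates 6 and 7, 0 members were called lower and Agr2 higher, and with replicates 1 and 3 alone the median was -0.02.

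The unfolded protein response rose in 18 of 26 genes, 16 of these 18 without overlap, at modest fold changes (median log2 fold change 0.94). Hspa5, the chaperone BiP that senses unfolded protein, was at 238 to 433 CPM (median 260.1) in C57BL/6 and 559 to 1177 CPM (median 694) in Winnie-Prolapse (log2 fold change 1.4004 ± 0.17, adjusted p = 9.17e-06). The calcium-binding chaperone Calr rose 2.21-fold (median 676 against 1518 CPM) and the disulphide isomerase Pdia3 1.85-fold (median 483 against 876 CPM). The largest changes were in targets of the ATF4 arm, with Chac1, which degrades glutathione, at 0.554 to 1.53 CPM (median 1.10) in C57BL/6 and 6.95 to 29.7 CPM (median 13.1) in Winnie-Prolapse (log2 fold change 3.79 ± 0.31, adjusted p = 3.13e-07), the pseudokinase Trib3 at 3.54 ± 0.39 and asparagine synthetase Asns at 2.24 ± 0.21. Ddit3, which encodes the pro-apoptotic factor CHOP and was chosen after its values were seen, was not called (median 13.6 against 7.495 CPM; log2 fold change -0.64 ± 0.15, adjusted p = 0.002). Without replicates 6 and 7, 18 members were called, and with replicates 1 and 3 alone 12.

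ATF6 binds the endoplasmic reticulum stress element (ERSE), a CCAAT box and a CCACG box 9 bases apart. The promoter of Hspa5 (chr2:34771840-34772089, plus strand) is printed as the called gene of the list with the largest change that holds it, and the match in capitals starts at -65.
Hspa5: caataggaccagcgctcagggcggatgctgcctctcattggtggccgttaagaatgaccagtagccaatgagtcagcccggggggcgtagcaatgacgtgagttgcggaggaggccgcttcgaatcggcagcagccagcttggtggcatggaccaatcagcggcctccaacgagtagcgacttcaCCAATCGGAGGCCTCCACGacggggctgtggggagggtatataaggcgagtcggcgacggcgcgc

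The element was found in 8 of 23 promoters of the unfolded protein response list (34.8%), which covered 23 of the 26 genes, against 0.119% of all promoters.

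Transport genes of the absorptive colonocyte fell in part. Of 27 members, 9 were called lower and Clca4b, described above, was the 1 called higher (median log2 fold change -0.65). Car1, a carbonic anhydrase of the colon surface, was at 734 to 3428 CPM (median 1876) in C57BL/6 and 61.8 to 567.8 CPM (median 207) in Winnie-Prolapse (log2 fold change -2.98 ± 0.40, adjusted p = 2.57e-05). Slc26a3, the chloride-bicarbonate exchanger, was at 1709 to 3902 CPM (median 2479) in C57BL/6 and 117 to 1390.3 CPM (median 188) in Winnie-Prolapse (log2 fold change -2.55 ± 0.51, adjusted p = 0.000714) and was called in 3 of the 15 fits without 1 library, with adjusted p from 2.88e-05 to 0.00206. Without prolapse replicate 3 its log2 fold change was -3.18. Car4, another carbonic anhydrase of the surface, was not called (-2.04 ± 0.72, adjusted p = 0.0255), and its prolapse libraries ran from 44.2 to 1952 CPM (median 97.8), with replicates 1 and 3 as the highest. Car1 and Slc26a3 were lower in every prolapse library than in any C57BL/6 library. The lower count was 4 without replicates 6 and 7, and without C57BL/6 replicate 7 the higher count was 3. Replicates 1 and 3 did not share the fall over the whole list, at 0.10 and 0.28 log2 units from the C57BL/6 mean, against -1.42 to -0.41 in the other 5. With these 2 libraries alone, edgeR called 0 lower, where 0.261% of all genes were called lower, and the median was -0.23. At an unadjusted p under 0.05, 10 were lower, without a share over all genes for that fit.

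**Figure D4:**
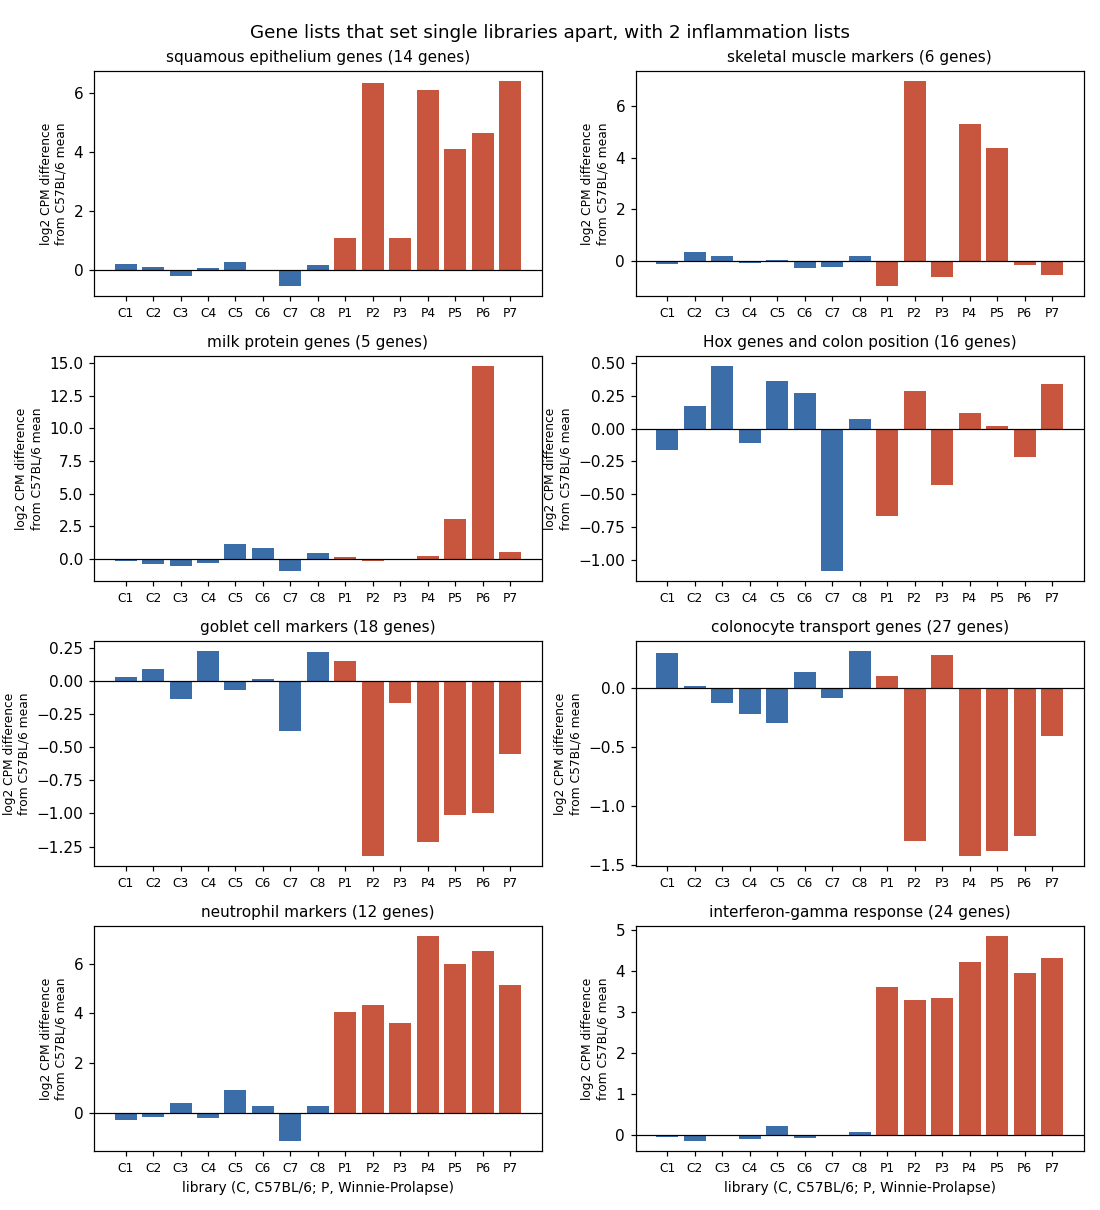
Mean log2 CPM of 8 gene lists in each library (C, C57BL/6; P, Winnie-Prolapse), as the difference from the C57BL/6 mean. Squamous genes are high in prolapse replicates 2, 4, 5, 6 and 7 and goblet and colonocyte genes are low in the same libraries, whereas neutrophil and interferon-gamma genes are high in all 7.

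Xenobiotic-metabolising enzymes fell for 11 of 33 genes and none rose, although 1 did without C57BL/6 replicate 7 (median log2 fold change -1.24). Beside Cyp2c55 and Cyp2c69, Fmo5, a flavin monooxygenase, was at 33.3 to 60.2 CPM (median 44.4) in C57BL/6 and 3.27 to 15.6 CPM (median 9.67) in Winnie-Prolapse (log2 fold change -2.29 ± 0.27, adjusted p = 7.24e-06). The groups were apart for Fmo5. Adh1, an alcohol dehydrogenase and the most abundant member, was not called (log2 fold change -0.94 ± 0.36, adjusted p = 0.0383). The count was 18 without prolapse replicate 3, 7 without replicate 5 and 5 without replicates 6 and 7, and with replicates 1 and 3 alone the median was -0.71. Fatty acid oxidation and ketogenesis genes were called lower for 3 of 24 by edgeR, near the background, at a median log2 fold change of -0.58. At an unadjusted p under 0.05, 18 were lower and 2 higher, where the shares over all genes were 29.1% and 29.4%. The called genes were the lipid-sensing receptor Ppara (median 5.86 against 2.16 CPM; -1.56 ± 0.21), its coactivator Ppargc1a (-1.48 ± 0.30) and the thiolase Acaa2 (-0.97 ± 0.19), and the dehydrogenase Acadl was called higher (0.68 ± 0.082). Ppargc1a and Acaa2 were called in 3 and 7 of the 15 fits without 1 library. The lower count was 6 without prolapse replicate 3 and 1 without C57BL/6 replicate 1, 2 or 3 or prolapse replicate 4 or 5. Cpt1a, the gate of mitochondrial import of fatty acids, was not called (-0.25 ± 0.14). DESeq2 called 9 of the fatty acid list lower and 1 higher, where its shares over all genes were 10.6% and 12.6%.

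Nuclear genes of the respiratory chain did not follow. Of 25, edgeR called 0 in either direction, 2 were lower at an unadjusted p under 0.05, and DESeq2 and limma-voom called 0. Atp5b, the catalytic subunit of ATP synthase, was at 1322 to 1529 CPM (median 1414) in C57BL/6 and 1191 to 1815 CPM (median 1546) in Winnie-Prolapse, and Atp5a1 had a log2 fold change of 0.17 ± 0.10. Glycolytic genes rose for 8 of 19. Hk3, the hexokinase of myeloid cells, rose 10.3-fold (median 0.750 against 6.25 CPM), Pfkfb3, which sets the rate of glycolysis, 5.33-fold (median 10.5 against 65.2 CPM), and the lactate exporter Slc16a3 2.77-fold. The abundant enzymes Pkm (0.30 ± 0.12) and Aldoa (0.15 ± 0.14) were not called. Without replicates 6 and 7, 4 of the list were called.

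Cell cycle genes rose for 16 of 26 (median log2 fold change 1.14). Ccna2, cyclin A2 of S phase, was at 22.04 to 55.5 CPM (median 37.95) in C57BL/6 and 71.3 to 163.3 CPM (median 102) in Winnie-Prolapse (log2 fold change 1.54 ± 0.20, adjusted p = 2.3e-05), the mitotic kinase Plk1 at 6.82 to 17.8 CPM (median 12.9) in C57BL/6 and 19.04 to 65.1 CPM (median 48.1) in Winnie-Prolapse (log2 fold change 1.70 ± 0.25, adjusted p = 6.17e-05) and Rrm2, a ribonucleotide reductase subunit, at 4.57 to 16.99 CPM (median 8.60) in C57BL/6 and 15.8 to 49.7 CPM (median 35.7) in Winnie-Prolapse (log2 fold change 1.78 ± 0.27, adjusted p = 7.99e-05). The groups were apart for Ccna2 and Plk1 and overlapped narrowly for Rrm2. Mki67, the common proliferation marker, just missed the call (log2 fold change 1.24 ± 0.27, adjusted p = 0.00117). The list was lowest among the prolapse libraries in replicate 3 (0.25 log2 units above the C57BL/6 mean) and highest in replicate 5 (1.59). The count was 10 without C57BL/6 replicate 2 or prolapse replicate 2, 5 or 6. With replicates 1 and 3 alone edgeR called 0, where 2.29% of all genes were called higher, at a median of 0.71. At an unadjusted p under 0.05, 17 were higher, without a share over all genes for that fit.

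Stem cell and Wnt target genes were called at a share near the background (2 higher and 1 lower of 17). Ascl2, the transcription factor of crypt base stem cells, fell by 2.82-fold (median 7.22 against 2.501 CPM; log2 fold change -1.496 ± 0.22, adjusted p = 6.21e-05), while Cd44 rose 3.84-fold and Ephb2 2.08-fold (called in 7 of the 15 fits without 1 library, with adjusted p from 3.8e-05 to 0.00129), and Sox9 was not called (-0.32 ± 0.13). Of 20 wound repair and fetal-type epithelial genes, 9 rose. Ly6a, the surface antigen Sca-1 that marks the regenerating epithelium of injured colon and several blood cells, was at 138 to 267 CPM (median 190.1) in C57BL/6 and 1238 to 2655 CPM (median 1823) in Winnie-Prolapse (log2 fold change 3.27 ± 0.19, adjusted p = 7.94e-09). No prolapse library came near the C57BL/6 range. Plaur, the urokinase receptor, rose 13.4-fold and the growth factor Ereg 8.55-fold. The groups overlapped for S100a6, at 817 to 1076 CPM in C57BL/6 and 601 to 1555 CPM in Winnie-Prolapse. With replicates 1 and 3 alone, 3 wound repair genes were called, at a median log2 fold change of 1.10 against 1.43 with all libraries.

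Genes common to the whole epithelium stayed near their C57BL/6 level. Of 14 pan-epithelial genes, Cdh17, the liver-intestine cadherin, was the 1 called, 1.65-fold higher, and it lost the call without C57BL/6 replicate 2 or prolapse replicate 1 or 7 (adjusted p up to 0.00134). Without C57BL/6 replicate 7, 2 were called. The keratin Krt8 was at 2216 to 3130.0 CPM (median 2528) in C57BL/6 and 2101 to 4399 CPM (median 2862) in Winnie-Prolapse (0.19 ± 0.15). Of 16 tight junction genes, 1 rose and 1 fell, shares near the background. The number higher was 0 without C57BL/6 replicate 2 or prolapse replicate 7 and 2 without prolapse replicate 1. Ocln, occludin, fell from 107 to 170.2 CPM (median 143) to 61.7 to 82.6 CPM (median 66.4) (log2 fold change -0.99 ± 0.10, adjusted p = 1.71e-06) in every prolapse library. Cldn7, the most abundant claudin of the list, was not called (0.24 ± 0.11). Of 18 enteroendocrine markers, the granule proteins Chga (median 59.1 against 23.4 CPM; -1.06 ± 0.17) and Scg5 (-1.37 ± 0.24) fell, a share near the background. At an unadjusted p under 0.05, however, 11 of the list were lower and 1 higher (29.1% and 29.4% over all genes), and DESeq2 called 4 lower (10.6% over all genes). Neither Chga nor Scg5 was called without replicates 6 and 7 (adjusted p = 0.00125 and 0.00246), and without C57BL/6 replicate 7 the list held 1 higher and 3 lower calls. The hormone gene Pyy (0.43 ± 0.25) and Chgb (-0.36 ± 0.16) were not called. Of 9 tuft cell markers edgeR called 0, with 2 higher and 5 lower at an unadjusted p under 0.05, while DESeq2 called 3 lower and limma-voom 0, and without C57BL/6 replicate 7 edgeR called 1 higher. Dclk1, the usual tuft cell marker, was at 7.95 to 40.9 CPM (median 15.5) in C57BL/6 and 4.995 to 10.2 CPM (median 9.25) in Winnie-Prolapse (log2 fold change -1.01 ± 0.28, adjusted p = 0.00733), and C57BL/6 replicate 7 held the highest level of the list.

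Several gene groups of other tissues were high in some prolapse libraries. Of 14 squamous epithelium genes tested, of 28 listed, 12 were called higher (median log2 fold change 6.37), against 13 higher and 1 lower by DESeq2 and 3 higher by limma-voom. Without C57BL/6 replicate 7, 10 were called higher and 1 lower. Krt5, the keratin of basal squamous cells, was at 0.0604 and 0.0685 CPM in replicates 1 and 3, inside or below the C57BL/6 range of 0.0640 to 0.582 CPM (median 0.213), and at 351, 219, 42.0, 135 and 687 CPM in replicates 2, 4, 5, 6 and 7. Krt13 (median 0.196 against 12.4 CPM) and Krt14 (median 1.92 against 105.2 CPM) were called as well. Trp63, the defining transcription factor of squamous cells, did not pass the filter on low counts and was at 0.0604 to 36.5 CPM (median 12.2) in Winnie-Prolapse. Summed over the list, Tgm3 included, the level was 136 to 4127 CPM in C57BL/6 and 792 to 5332 CPM in Winnie-Prolapse. Krt6b was at 0.753 to 717 CPM (median 5.52) in Winnie-Prolapse and at most 0.0943 CPM in C57BL/6. The mean level of the list was 1.08 log2 units above C57BL/6 in replicate 1, 1.08 in replicate 3 and 4.08 to 6.39 in the others, and those are the libraries with low goblet and colonocyte levels. The part of this difference in the goblet, colonocyte, neuron and muscle results was not tested beyond the fit with replicates 1 and 3 alone. Tgm3, an epidermal transglutaminase that was abundant in 7 of the 8 C57BL/6 libraries, was not called (log2 fold change -2.99 ± 0.70, adjusted p = 0.00218).

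Skeletal muscle genes were called for 3 of 6 (Tnnt3, Mylpf and Tnni2), all of which rested on replicates 2, 4 and 5. Tnnt3, a fast troponin, was at 341, 121 and 41.8 CPM in these and at 0.272, 0.377, 1.68 and 0.703 CPM in replicates 1, 3, 6 and 7. Summed over the list, the level was 19.6 to 52.8 CPM in C57BL/6 and 7.65 to 3309 CPM in Winnie-Prolapse. The 3 calls were lost in the fits without any 1 of the C57BL/6 libraries or without prolapse replicate 2, 4 or 5 (adjusted p up to 0.00252). DESeq2 called 5 and limma-voom 0 of the list. Milk protein genes were called by no tool, with 5 of 5 higher at an unadjusted p under 0.05 in edgeR and 0 called by DESeq2 or limma-voom. Csn2, beta-casein, was at 86834 CPM in replicate 6, a female, at 19.2 CPM in replicate 5, also female, and at 0.728 to 2.07 CPM elsewhere. The fitted median log2 fold change of the list, 13.36, fell to 1.92 without replicate 6. The listed milk genes summed to 226270 CPM in replicate 6 and to at most 24.2 CPM in any C57BL/6 library.

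Red blood cell genes were called for 1 of 7, a share near the background. This was the membrane protein Slc4a1 (3.66 ± 0.65), and none was called without replicates 6 and 7. Adipocyte markers were not called (0 of 7 by edgeR, 4 lower at an unadjusted p under 0.05, 0 by DESeq2 and limma-voom), and Fabp4 was at 10.7 to 80.1 CPM (median 24.9) in C57BL/6 and 7.71 to 32.95 CPM (median 13.4) in Winnie-Prolapse. Summed over the list, the level was 49.8 to 268 CPM in C57BL/6 and 25.2 to 707 CPM in Winnie-Prolapse. The highest sums, 707 and 308 CPM in prolapse replicates 2 and 4, were mostly Car3, at 638 and 266 CPM. Both libraries also held skeletal muscle RNA, and Fabp4 was at 15.9 and 15.7 CPM in them. Car3 was at 2.67 to 86.3 CPM in the remaining prolapse libraries and at 13.8 to 90.1 CPM in C57BL/6. Of 16 Hox genes and markers of colon position, edgeR called 0, found 4 lower at an unadjusted p under 0.05, and DESeq2 and limma-voom called 0. Hoxb13, of the distal colon, was at 16.5 to 614 CPM (median 415) in C57BL/6 and 197 to 424 CPM (median 252) in Winnie-Prolapse. The lowest Hoxb13 value of all 15 libraries was that of C57BL/6 replicate 7.

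The response did not differ detectably between males and females. For the interaction of sex with group, edgeR called 0 of 17397 genes (0%) at an adjusted p under 0.05, with a smallest adjusted p of 1, and 755 genes (4.34%) had an unadjusted p under 0.05. DESeq2 called 2 and limma-voom 0, and edgeR without replicates 6 and 7 called 1. The genes with the smallest p included Csn2 and Csn1s1, high in the female replicate 6, and Il33, an alarmin of stromal and epithelial cells, which was at 3.60 to 8.23 CPM (median 5.92) in C57BL/6 and 6.16 to 28.6 CPM (median 10.8) in Winnie-Prolapse over both sexes (log2 fold change 1.43 ± 0.33, adjusted p = 0.00185, not called). With 3 or 4 mice of each sex in each group, this does not show that the sexes responded alike.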

How the data were processed

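Distal colon was frozen, RNA was extracted, per the labels with TRIzol and RNeasy Mini columns (the methods of the study name another RNeasy kit), and poly(A) RNA was made into stranded MGIEasy libraries. The authors aligned reads with STAR within the RNAsik pipeline to the mouse build GRCm38 and deposited raw read counts per gene from featureCounts, with no normalization, and the submitters' processing notes also name limma. The annotation release, the strand setting and the handling of shared reads are not given in the sources used here, so values of near-identical, overlapping or antisense genes are uncertain.

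From these counts (46078 genes), the 8 C57BL/6 and 7 Winnie-Prolapse libraries were fitted with the edgeR 4.0.16 quasi-likelihood F test in R 4.3.3, with TMM factors, filterByExpr and Benjamini-Hochberg adjustment over the 17397 genes left. In any list, a gene almost without counts in C57BL/6 could pass this filter only through the prolapse libraries, which favours rises among such genes. The limits of an adjusted p under 0.001 and 1.5-fold are those of the study. The interaction of sex with group was called at an adjusted p under 0.05. CPM values are deposited counts scaled by library total and TMM factor, log2 CPM used a prior count of 2, and a floor of 3 counts was taken as the limit of detection. Apart from a date in the title of 1 prolapse library (replicate 5), nothing in the labels names a batch. The p-values measure the spread between libraries within these groups. That spread includes the tissue differences described above and any batch the labels do not name. Pairs of libraries were compared by a chi-square per gene, and none agreed within sampling noise.

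Members and 51 gene lists (907 genes, 906 found in the table, 822 tested) were chosen with earlier results of these data known, so no list was tested as a set. Named genes were the 10 largest increases and decreases without overlap, up to 3 called genes with the largest change and up to 2 of the highest level from each list (average log2 CPM of at least 1), all calls of lists with 5 or fewer, defining cell markers, Muc2 and the 5 smallest interaction p-values. Promoters came from RefSeq. Alternatives were other scalings, filters, tools, thresholds, sexes apart, all 3 groups in a fit, and fits without libraries. The fit with prolapse replicates 1 and 3 alone was chosen after the data were seen. Some genes named by this rule are not reported here.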

Additional observations from a re-analysis of the deposited data

Results flagged for a closer look

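Mean levels of the 51 lists were screened for libraries far from their group, as log2 CPM relative to the C57BL/6 mean. Of 102 groups of values tested, 9 held such a library, where chance would flag about 1 in 20. C57BL/6 replicate 7 gave 6 of the 9. It was the lowest of its group for chemokines (-0.935) and for Hox genes and colon position (-1.08), and the highest for epithelial antimicrobial genes (1.15), smooth muscle contractile genes (0.659), fatty acid oxidation and ketogenesis (0.551) and tuft cell markers (1.28). C57BL/6 replicate 3 was the lowest for cytotoxic lymphocyte markers (-0.917). Among the prolapse libraries, replicate 3 was the highest for enteric neuron markers (-0.704) and replicate 6 the highest for milk protein genes (14.8). Whether the segment of colon sampled or another property of these mice sets these values was not tested.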

How the results depend on the processing

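DESeq2 called 2745 genes higher and 2302 lower, and the threshold of an adjusted p under 0.05 with 1.5-fold gave 2902 and 3079. Fits of males alone gave 248 and 59, of females alone 224 and 31, and the fit with prolapse replicates 1 and 3 alone, chosen after seeing the data, 420 and 48. Without prolapse replicates 6 and 7, 774 genes were lower. Leaving out each library in turn gave 1361 to 1995 higher and 1048 to 1662 lower. The other settings stayed within 1.5 times of both counts. The interaction count of 0 became 2 with DESeq2 and 1 without prolapse replicates 6 and 7. The fits with fewer mice had fewer samples by construction. For the rest the cause was not tested. Directions turned for named genes as follows (log2 fold changes). With prolapse replicates 1 and 3 alone, the called genes Krt5 (-1.965), Krt14 (-0.564), Tnnt3 (-1.102) and Mylpf (-0.06123) and the uncalled genes Col3a1 (-0.206), Saa1 (0.2449), Nlrp6 (0.2241), Pigr (0.4641) and Sox10 (-1.618) changed sign. Sox10 was also negative with DESeq2 (-1.503), limma-voom (-1.079), males alone (-1.578) and without prolapse replicates 6 and 7 (-1.711), and ran from -1.729 (without replicate 6) to 1.242 when 1 library was left out. Ccl28 was negative in males (-0.1493) and without prolapse replicates 6 and 7 (-0.1592), and ran from -0.03458 to 0.3434 without 1 library, where Pigr ran from -0.2285 to 0.04294. Lypd8 was negative with library totals (-0.08598), limma-voom (-0.08581), males alone (-0.08585) and without prolapse replicates 6 and 7 (-0.005469), and ran from -0.1715 to 0.1249 without 1 library. The other 159 of 163 called genes named kept their direction in every setting, and 137 kept their call without any 1 library. Without prolapse replicates 6 and 7, 32 lost the call, namely Acaa2, Batf3, C1qa, Cd4, Cdh17, Chga, Clca1, Duox2, Ephb2, Fap, Gm15998, Ighg1, Il11ra1, Il18, Il5ra, Kcnmb1, Kcnn3, Kit, Klk1, Mcpt4, Ppargc1a, Ptger3, Ptges, Ptgis, Reg3g, S100b, Scg5, Serping1, Slc16a3, Slc26a3, Slc4a1 and Tbxas1. Over all settings, 353 of 2752 counts of calls per list were classed as moved. Of the list medians, 1309 of 1376 moved by less than the spread between prolapse libraries. Of 9 motif shares, 6 were equal in the 250-base window, and the ISRE core fell to 9 of 18 promoters of type I interferon-stimulated genes and 3 of 14 of MHC class I genes and the NF-kB type motif to 4 of 18 of chemokines, each inside the 95% exact binomial interval of its share in 300 bases.
Genes with at most 3 counts in a library lie at the limit of these depths. No paired analysis was possible because the labels give no replicate numbers that link mice between the groups.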
